A study of Saccharomyces cerevisiae with 11 samples.

Results

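The peptides described here carry a pair of tryptophan cores and differ only in the residues on either side of each core. They were chosen by their design label alone, and none of the measured values entered the choice. They form a complete grid of the 20 residues before the tryptophan by the 20 residues after it, which makes 400 peptides among 12400 library entries. Each peptide is written below as its triplet, so that LWW has leucine before and tryptophan after the core tryptophan.

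The designed pool was carried by Y2H Gold, a Saccharomyces cerevisiae reporter strain for protein interaction studies in which activation of the reporter gives resistance to the antifungal aureobasidin. The labels describe growth in medium without tryptophan, with daily dilution, and DNA was sequenced from 11 samples. A starting culture (0 h) and untreated cultures (12 and 24 h) stand beside aureobasidin cultures labelled 150 or 200, each sampled at 12, 24, 48 and 72 h. The dose labels carry no unit here because the sample fields and the growth protocol give different ones, and that protocol describes the antifungal for every sample, the untreated ones included. Each sample holds 5 barcoded sub-libraries that the series calls biological replicates, but nothing states that they were separate cultures, so each p-value measures the spread between barcoded sub-libraries.

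Activation domains are the parts of transcription factors that recruit the transcription machinery, often through coactivators such as Mediator. Many are disordered and mix acidic residues with bulky hydrophobic ones, and tryptophan, phenylalanine and leucine are the residues best known to contact the shallow hydrophobic surfaces of coactivators. Acidic residues are thought to keep such side chains exposed to solvent. In this assay a peptide that activates the reporter lets its cell grow with the antifungal, so its share of the reads is the readout.

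Every member has 20 residues: 8 leading glycines and then 2 copies of a unit of 6 residues, glycine, aspartate, glycine, the residue before, tryptophan and the residue after. The 2 copies always carry the same flanks, and the unit itself supplies 2 aspartates to every peptide. A triplet therefore gives the whole peptide: in WWL both units read glycine, aspartate, glycine and then WWL. The members the results turn on are WWL, MWL, CWF, MWW and LWL, which held the largest shares of reads at label 200 at 72 h. LWW was the most abundant member at the start, and IWW and FWW differ from it only in the residue before the core. WWV is WWL with valine in place of leucine.

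The 55 libraries held 683589 to 3392656 reads each. Levels are given in counts per 1000000 reads of a library (CPM), or as a percent of reads. They are shares of a pool, so a peptide that holds steady while others grow falls in share. As a reference, 153 entries that begin with a stop codon and encode no peptide held 0.400% ± 0.0264 (SD, n = 5) of reads at 0 h. Their share was 0.0287% ± 0.00676 in the untreated culture at 24 h. It was 0.00145% ± 0.00147 at label 150 at 24 h, with no read at 72 h. At label 200 it was 0.0558% ± 0.0139 at 24 h and 0.00428% ± 0.00132 at 72 h, so reads of entries that encode nothing remained at label 200 at a level not seen at label 150. The part of such leftover reads in the values at label 200 was not tested.

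The tryptophan pair grid shrank in every later sample. Its 400 members held 2.42% ± 0.229 (SD, n = 5) of reads at 0 h and 1.74% ± 0.304 in the untreated culture at 24 h. With label 150 the share was 1.27% ± 0.239 at 12 h, 0.517% ± 0.106 at 24 h, 0.137% ± 0.0345 at 48 h and 0.0236% ± 0.00529 at 72 h. With label 200 it was 1.52% ± 0.271, 0.648% ± 0.113, 0.129% ± 0.0202 and 0.0214% ± 0.00156 at the same times. The barcodes at 24 h did not overlap between the untreated culture (1.34% to 2.09%) and either dose (0.397% to 0.667% at label 150, and 0.498% to 0.801% at label 200).

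The loss was uneven within the grid. At 0 h the 5 most abundant members held 11.2% ± 7.12 of the grid's reads, and at label 150 at 72 h the 5 most abundant held 67.7% ± 10.3. At label 200 at 72 h the top 5 held 34.8% ± 9.02. Members with a read numbered 366 in the untreated culture at 24 h, 115 at label 150 at 24 h and 56 at label 150 at 72 h. At label 200 the numbers were 292 at 24 h and 332 at 72 h. Of the 400 members, 16 had no read in any library and say nothing about their flanks.

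Already without the antifungal, members with tryptophan, leucine or phenylalanine flanks about held their share of the pool and members with basic flanks lost most of theirs. Summed over its 20 members, tryptophan before the core stood at 112% ± 9.84 (SD, n = 5) of its 0 h share after 24 h in the untreated culture, and tryptophan after the core at 120% ± 7.60. Leucine gave 109% ± 19.5 before and 110% ± 12.2 after, and phenylalanine 99.1% ± 14.9 and 94.4% ± 5.77. Other hydrophobic flanks stood lower, with methionine at 84.1% ± 12.6 and 73.7% ± 19.4, isoleucine at 55.9% ± 16.9 and 61.8% ± 13.9, and valine at 38.6% ± 20.6 and 53.3% ± 23.9. Lysine gave 7.75% ± 3.46 before and 13.1% ± 4.48 after, histidine 19.7% ± 8.04 and 24.6% ± 8.48, and arginine 21.1% ± 28.0 and 18.1% ± 13.6. The acidic residues lay between, with aspartate at 59.3% ± 21.2 before and 49.7% ± 5.92 after, and glutamate at 53.8% ± 17.6 and 45.5% ± 13.8. The entries with a stop codon stood at 7.14% ± 1.43 of their 0 h share, which is close to the value for lysine before the core.

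The mean log2 change of each residue's members relative to the whole grid gave the same extremes. Tryptophan lay 1.42 ± 0.130 (SD, n = 5) above the grid before the core and 1.40 ± 0.0821 after it. Phenylalanine lay 1.12 ± 0.0709 and 1.18 ± 0.133 above it. Lysine stood at -0.89 ± 0.218 before and -0.62 ± 0.186 after. Over the 400 members, the sum of an effect before and an effect after described 48.5% of the variance of the log2 change, with 25.2% from the residue before and 23.3% from the residue after. Over the 324 members with at least 100 reads at 0 h, it described 68.8%, so in untreated cultures a sum of single flanks covered most of the spread among well measured members. This minimum was chosen after the values were seen. For the changes at 24 h against the untreated culture, the same sum described 26.2% at label 150 and 31.8% at label 200. Over the 324 members it described 28.2% and 35.1%, so the sum left most of this spread undescribed. However, 285 of the 400 members had no read at label 150 at 24 h, and 108 had none at label 200. The change of such a member can only follow its untreated level. Over the 400 members the change ran with the log2 reads at 0 h at r = -0.61 for label 150 and -0.46 for label 200. The lower percents therefore do not show that single flanks mattered less with the antifungal than without it.

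In the fit over all library entries (edgeR's quasi-likelihood test with Benjamini-Hochberg adjustment), 70 of 334 members tested fell in share in the untreated culture from 0 h to 24 h, or 42 with DESeq2. Of all 9000 entries tested, 26.7% fell, or 17.2% with DESeq2. The members' median log2 change was -1.84, against -1.87 over all entries, so the grid as a whole moved like the library. Of the members tested with lysine before the core, 10 of 15 fell. The counts were 7 of 13 for arginine and 7 of 18 for histidine, and 0 of 17 for phenylalanine and 0 of 19 for tyrosine in that place. No member rose, either after adjustment or at an unadjusted p under 0.05 (edgeR), among 9000 entries of which 0 rose, whereas DESeq2 called 1 member and 1.02% of all entries higher. With the barcode number as a replicate block, 262 members fell and 9 rose, where 74.6% of all entries fell and 9.12% rose. The 9 were CWW, FWL, FWM, LWF, LWL, LWW, MWW, WWI and WWL, all with phenylalanine, leucine, methionine or tryptophan on at least 1 side. With TMM scaling 3 members and 3.97% of all entries fell.

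At label 150 some members kept a large part of their share after 24 h and others had no read left. Each value that follows is the share of reads as a percent of the untreated culture at the same time, and the grid as a whole kept 29.7% ± 2.25 (SD, n = 5). In the same fit, 93 of 164 members tested fell, against 37.7% of all 4416 entries tested, and their median log2 change was -4.27 against -1.81 over all entries. With members without a read set to a floor of 3 reads over the 5 libraries, the median was -4.25. No member rose at an adjusted or an unadjusted p under 0.05 by edgeR, where 0 of 4416 entries rose, nor by DESeq2. Another 236 members had too few reads to test. Of the 164 tested, 163 had at least 100 reads in the untreated culture, 43 had as many at label 150 and 62 had none there. They passed the minimum through their untreated level, so the counts and the median add little to the description of the members. With the replicate block, 151 members fell and 1, CWF, rose, where 58.2% of all entries fell and 19.2% rose.

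Before the core, the summed reads of members with methionine, leucine or phenylalanine kept similar percents in all 5 barcodes. Methionine kept 47.8% ± 4.21 (SD, n = 5; 41.2% to 51.8%), leucine 39.1% ± 4.15 (34.7% to 43.5%) and phenylalanine 37.8% ± 2.84 (33.9% to 41.1%). The beta-branched residues isoleucine and valine, which are about as hydrophobic as leucine, kept 4.31% ± 3.56 (0.366% to 9.66%) and 5.35% ± 3.68 (0.677% to 8.91%). Their barcodes did not overlap those of leucine or methionine. Tyrosine, the aromatic residue with a hydroxyl group, kept 9.42% ± 4.01, and its highest barcode (13.0%) lay below the lowest of phenylalanine. These percents are of summed reads, so abundant members weigh most. Among members with at least 100 untreated reads at 24 h, the median was 3.44% for methionine and 6.14% for leucine. It was 19.5% for phenylalanine and 19.9% for tryptophan. Matched by the residue after, phenylalanine kept more than leucine in 8 of 10 contexts and tryptophan in 9 of 12. The order of the summed percents therefore did not hold for single members.

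Tryptophan before the core kept 26.5% ± 12.2, aspartate 34.3% ± 10.6 and asparagine 40.0% ± 8.003. Cysteine kept 48.0% with an SD of 37.6 and a range of 18.8% to 107%, which leaves its place in the order undecided. Glycine kept 6.09% ± 3.77. Histidine kept 0.986% ± 1.35 and arginine 0.401% ± 0.897. Lysine kept 7.65% ± 13.8 on only 9 reads, which were seen in 2 of its 20 members.

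After the core, leucine had the highest mean of the hydrophobic residues. Leucine kept 51.2% ± 7.31 (SD, n = 5; 42.3% to 62.1%), phenylalanine 45.0% ± 11.2 (33.1% to 58.4%), tryptophan 33.2% ± 7.17 (24.1% to 41.0%) and methionine 32.0% ± 12.0 (19.6% to 47.0%). The first 2 of these overlap, as do the last 3. Isoleucine kept 15.2% ± 6.32 (6.16% to 22.1%), valine 7.21% ± 6.10 and tyrosine 8.45% ± 6.18 (1.90% to 18.5%). Methionine, with the highest mean of the hydrophobic residues before the core, had a lower mean here than leucine and phenylalanine, and the mean of isoleucine was higher here than before the core. None of the barcodes of isoleucine, valine or tyrosine reached the lowest barcode of leucine or phenylalanine. These too are percents of summed reads. Among members with at least 100 untreated reads, the medians were 34.7% for phenylalanine, 30.0% for tryptophan and 16.9% for leucine. Matched by the residue before, phenylalanine kept more than leucine in 9 of 15 contexts and less in 5. The 20 members with lysine after the core and the 20 with arginine after it had no read at label 150 at 24 h. In the untreated culture they had held 49.9 CPM ± 16.5 and 138 CPM ± 147.

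Pairs of flanks differed from what either flank kept alone. Grouped by class, an aliphatic residue on both sides kept 47.4% ± 9.77 (SD, n = 5; 16 members). MWL and LWL held 2411 of the 3278 reads of that class at label 150, and without them it kept 23.1% ± 11.2 (12.4% to 36.6%). Within the class MWM kept 37.9%, LWM 31.8% and MWI 29.9%, whereas LWV and VWM kept 0%, IWI 1.51%, VWL 6.65% and IWL 16.9%. An aliphatic residue before with an aromatic after kept 40.9% ± 10.8 (12 members), and an aromatic before with an aliphatic after kept 39.0% ± 7.12 (12 members). Aromatic residues on both sides kept 7.97% ± 3.59 (9 members, 3.03% to 10.6%). The barcodes of the doubly aromatic class lay below all those of the other 3 classes. All 9 of its members still had reads, 635 in all.

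Acidic residues kept their members when the other flank was aromatic. An acidic residue before with an aromatic after kept 39.8% ± 6.68, and an aromatic before with an acidic after kept 34.3% ± 11.8. An acidic residue beside an aliphatic one kept 3.88% ± 4.38 when it came before the core and 1.09% ± 1.496 when it came after. Small and polar flanks showed a like dependence. Before an aromatic they kept 33.0% ± 8.22 and after one 25.8% ± 3.96, but only 0.367% ± 0.381 when both flanks were small or polar, which covers 49 members. Among acidic members beside an aromatic, DWF, DWW, EWF, EWW, FWD, WWD and WWE had at least 100 untreated reads, and none carried tyrosine. At label 150 at 48 h they stood between 1.29% (EWF) and 7.66% (DWF) of the untreated share at 24 h. The whole grid then stood at 7.85% ± 1.03.

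Members differed in net charge through their flanks alone, counting aspartate and glutamate as negative and lysine and arginine as positive. The 264 members with a net charge of -2 kept 30.4% ± 2.59 and the 64 with -4 kept 30.0% ± 4.76. The 64 members with a net charge of 0 kept 1.13% ± 1.25, on 20 reads. The 4 members with a charge of 2 and the 4 with -6 had no read at label 150 at 24 h, but they had only 44 and 72 reads in the untreated culture. At label 150 at 24 h the values for -2 and -4 differed by less than the spread between barcodes. The value for 0 lay below both by more than that spread. At label 150 at 48 h, -2 and -4 stood at 8.86% ± 1.31 and 2.66% ± 0.572 of the untreated share at 24 h. At 72 h they stood at 1.59% ± 0.351 and 0.147% ± 0.0606, and their barcodes overlapped at neither time. At label 200 at 24 h the mean for 0 was 85.2% ± 74.7. It was 36.3% ± 2.06 for -2 and 41.2% ± 9.10 for -4.

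Single members show the same split with better measured numbers. Of the 400, 163 had at least 100 reads in the untreated culture at 24 h, a minimum chosen after the values were seen, and a floor of 3 reads then corresponds to 5.43% kept. Pooled over barcodes, 43 of these 163 kept at least 25% of their share at label 150, 82 kept under 5% and 62 had no read. The median was 4.85%. Of the 16 members with phenylalanine, tryptophan, leucine or methionine on both sides, a grouping also made after the values were seen, 15 could be followed and 11 kept at least 25%, with a median of 51.2%. With such a residue on a single side, 30 of 86 did, with a median of 11.2%. With none, 2 of 62 did, with a median of 0%. Of the 15, those under 25% were FWW at 1.95%, FWF at 5.23%, WWW at 8.17% and WWF at 9.39%. All of these had phenylalanine or tryptophan on both sides. Each of the 11 that kept at least 25% had leucine or methionine on at least 1 side.

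CWF stood highest, at 222% of its untreated share, and was higher at label 150 in 5 of 5 barcodes. Its levels were 110, 58.8, 86.2, 16.6 and 3.68 CPM in barcodes 1 to 5 of the untreated culture at 24 h and 258, 127, 173, 47.1 and 6.73 CPM at label 150. The log2 change of 1.15 (SE 1.12) did not pass the unpaired test (edgeR adjusted p = 0.449), and the barcodes overlapped between the cultures. Within barcodes 1 to 5 the ratio of label 150 to untreated was 2.35, 2.17, 2.01, 2.84 and 1.83. With the replicate block the change was 1.16 (SE 0.325) and passed (edgeR adjusted p = 0.00853), where 19.2% of all entries rose. At label 200 it passed in that fit too, at 1.11 (SE 0.429, edgeR adjusted p = 0.0458). CWL followed with 124%, higher in 3 of 5 barcodes, and NWF with 110%. Next came MWL at 83.5%, FWP at 77.4%, DWF at 75.6%, FWD at 68.7% and MWF at 68.2%. LWF kept 59.4%, WWL 55.4%, FWL 54.2%, LWL 53.0%, MWW 51.2% and LWW 41.1%, and these abundant members were lower in 5 of 5 barcodes.

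LWW kept more than IWW, FWW, YWW and WWW, which differ from it only in the residue before the core. LWW held 996, 2705, 1072, 120 and 788 CPM in barcodes 1 to 5 of the untreated culture at 24 h and 418, 1039, 410, 28.5 and 420 CPM at label 150, a log2 change of -1.29 (SE 0.901) that did not pass the test (edgeR adjusted p = 0.295). With the replicate block it was -1.35 (SE 0.158) and passed (edgeR adjusted p = 9.20e-05). IWW held 65.6, 9.59, 21.5, 396 and 119 CPM and then 0, 0, 0, 0 and 14.6 CPM. Its fall of 5.37 on the log2 scale (SE 1.67) passed (edgeR adjusted p = 0.0130), and it kept 2.57%. FWW held 173, 212, 122, 7.53 and 12.9 CPM and then reads in a single barcode, at 7.81 CPM. It kept 1.95% and fell by 5.88 on the log2 scale (SE 1.64, edgeR adjusted p = 0.00803). YWW kept 10.1% and WWW 8.17%, and both fell in the test (edgeR adjusted p = 0.0218 and 0.0433). MWW, with methionine in that place, kept 51.2% and did not pass (edgeR adjusted p = 0.346), except with the replicate block, where its change was -0.98 (edgeR adjusted p = 7.04e-04). Leucine and methionine were not alone in this. Of 17 members with tryptophan after the core and at least 100 untreated reads, 10 kept at least 25%. They include QWW at 56.1%, NWW at 55.8%, PWW at 45.1%, EWW at 41.3% and DWW at 35.8%. GWW kept 12.0%, CWW 9.93% and HWW 0%.

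Leucine was then set against isoleucine and valine in members matched by the other flank. Among the 7 residues after the core for which both members had at least 100 untreated reads, leucine before the core kept more than isoleucine in 5 and less in 1, with medians of 41.1% and 1.60%. For the position after the core there were 8 such contexts, and leucine kept more in 7, with medians of 35.5% and 3.06% and 1 tie at no read. Leucine against valine gave 5 of 6 before the core and 4 of 5 after it. Over all 20 contexts, those with few reads included, the mean log2 change of leucine minus isoleucine was 0.62 ± 0.427 (SD, n = 5) before the core, with leucine higher in 13 contexts, and 0.09 ± 0.480 after it, with leucine higher in 9. Leucine minus valine was -0.05 ± 0.425 before the core and -0.31 ± 0.429 after it, with leucine higher in 9 contexts at each position. The matched counts in favour of leucine over valine therefore hold for contexts with at least 100 untreated reads, and the mean over all 20 contexts did not favour leucine. Phenylalanine after the core kept more than tyrosine in 8 of 10 contexts, with medians of 15.3% and 4.93%. Leucine and methionine before the core divided 9 contexts 4 to 5. Aspartate and glutamate before the core could be matched in 3 contexts only, where aspartate kept more in 2.

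Swapping the 2 flanks was compared within pairs. Both orders had at least 100 untreated reads for 45 of the 190 pairs of different flanks. In 13 pairs both orders kept at least 25% at label 150 at 24 h, in 8 pairs a single order did, and the median difference was 7.33 percentage points. CWF kept 222% and FWC 23.1%, and CWL kept 124% and LWC 6.14%, so the member with cysteine before the core kept more in both. These pairs had the largest differences of the 45. Other pairs with cysteine differed less. CWM kept 6.40% and MWC 0%, CWW 9.93% and WWC 8.39%, CWS 0% and SWC 1.27%, and CWG and GWC 0% each. MWL kept 83.5% against 31.8% for LWM, and PWW 45.1% against 6.61% for WWP. Ranked by the mean log2 change at label 200 at 72 h over all 190 pairs, the 5 pairs with the largest differences were VWW with WWV, MWW with WWM, MWT with TWM, CWH with HWC, and IWL with LWI. WWM, MWT, CWH and LWI had no read in any library and VWW had 24 reads in all, so those 5 differences do not measure the order of flanks.

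At label 200 the abundant members behaved at 24 h much as they did at label 150, but the contrast with the other members was smaller. The grid kept 37.3% ± 1.31 (SD, n = 5) of its untreated share. Before the core, methionine kept 52.5% ± 9.30, leucine 40.4% ± 4.07, phenylalanine 37.9% ± 5.60, isoleucine 19.9% ± 17.8 and tyrosine 15.7% ± 4.81. After the core, leucine kept 52.6% ± 9.20, phenylalanine 48.9% ± 11.6 and tryptophan 32.3% ± 3.69. The doubly aromatic class kept 13.2% ± 4.65 and the doubly aliphatic class 57.0% ± 6.26. Of the 163 members with at least 100 untreated reads, 84 kept at least 25%, against 43 at label 150. With phenylalanine, tryptophan, leucine or methionine on both sides 11 of 15 did. On a single side 49 of 86 did, and on neither 24 of 62, against 2 of 62 at label 150. With a basic flank 9 of 19 did, against 0 of 19 at label 150. Lysine before the core stood at 172% ± 155 and arginine at 157% ± 115 on 192 and 301 reads. The stop-codon entries stood at 205% ± 72.1 in the same sample, and the part of leftover reads in these basic members was not tested.

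Of 184 members tested at label 200 at 24 h against the untreated culture, 17 fell (edgeR), against 8.07% of all 4695 entries tested. The members' median log2 change was -1.90, against -1.02 over all entries. With any barcode left out, 0 members fell, and with the replicate block 86 fell and 1, CWF, rose, where 34.9% of all entries fell and 16.8% rose. No member rose at an adjusted or an unadjusted p under 0.05 by edgeR, where 0 of 4695 entries rose, nor by DESeq2. Label 150 and label 200 at 24 h share the untreated samples, so the calls at the 2 doses are not independent.

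By 72 h every member that could be tested had fallen in share. At label 150, 324 of 324 members tested fell against 0 h (edgeR), where 88.6% of all 8703 entries tested fell and 1.96% rose. At label 200, 325 of 325 fell, where 91.2% of all 8755 entries fell and 1.88% rose. No member rose at an unadjusted p under 0.05 by edgeR or by DESeq2. The members not tested numbered 76 and 75. The members passed the minimum of 10 reads through their level at 0 h, so these counts add little to the falls of the library as a whole. The median log2 changes were -8.98 at label 150, against -8.40 over all entries, and -6.99 at label 200, against -6.65. With members without a read set to the floor they were -7.03 and -7.22. At label 150, 269 of the 324 members tested had no read at 72 h, and at label 200 22 of the 325. Both medians at label 150 are thus set by members without a read, so they do not order the 2 doses. At label 200 TMM scaling raised the median of all entries by 4.40 and called 154 members and 39.1% of all entries lower.

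WWL held the largest share at the end. It had 137, 1574, 771, 92.3 and 256 CPM in barcodes 1 to 5 at 0 h. At 72 h it had 17.2, 160, 86.6, 6.80 and 63.8 CPM at label 150 and 7.32, 85.1, 39.2, 7.42 and 33.0 CPM at label 200. Barcodes 2, 3 and 5 held the highest levels both at the start and at the end. The log2 change at label 200 was -4.04 (SE 0.969, edgeR adjusted p = 1.05e-04), which lies 2.61 above the median of all entries. With TMM scaling the change was 0.75 (adjusted p = 0.441) and with DESeq2 -1.31 (adjusted p = 0.140), and it then lay 3.00 and 2.94 above the median. Its share of reads fell in 5 of 5 barcodes. The rescaled change differs because these scalings move all entries together, and its place above the library's median was much the same in all 3.

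MWL was the most even of the leading members over the barcodes. It went from 161, 231, 391, 443 and 478 CPM at 0 h to 12.9, 12.2, 20.04, 17.5 and 25.1 CPM at label 200 at 72 h. Its change of -4.28 (SE 0.927, edgeR adjusted p = 2.27e-05) lay 2.37 above the median of all entries, and with TMM scaling it was 0.44 (adjusted p = 0.639). CWF went from 169, 83.2, 147, 39.4 and 24.0 CPM to 26.2, 3.22, 5.01, 2.02 and 2.64 CPM. Its change of -3.55 (SE 0.989, adjusted p = 7.17e-04) lay 3.10 above the median. With TMM it was 1.30 (adjusted p = 0.208) and with DESeq2 -0.75 (adjusted p = 0.388).

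LWL went from 22.7, 65.5, 150, 510 and 335 CPM at 0 h to 0.349, 1.79, 1.77, 22.9 and 9.24 CPM, a change of -4.93 (SE 1.08, edgeR adjusted p = 2.58e-05) that lay 1.72 above the median. With TMM scaling it was -0.61 (adjusted p = 0.550). MWW went from 385, 535, 983, 298 and 459 CPM to 7.32, 2.86, 11.2, 9.44 and 6.16 CPM. Its change of -6.16 (SE 1.01, adjusted p = 2.21e-07) lay 0.49 above the median, and with TMM it was -1.44 (adjusted p = 0.151). For these 5 members the levels at 0 h and at 72 h were compared within each barcode, and each was lower in 5 of 5.

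The 6 deepest falls at label 200 at 72 h, ranked with every count under 3 raised to the floor of 3 reads, were those of WWV, EWW, GWW, SWL, LWQ and GWN. WWV fell from 3518 reads at 0 h to 2 at 72 h, a 2905-fold fall per read total (95% exact counting interval 804-fold to 23997-fold). EWW fell 1277-fold, from 3093 reads to 4, GWW 741-fold, from 1795 to 4, and SWL 652-fold, from 1579 to 4. LWQ (1114 reads) and GWN (1061) each ended with 3 reads, at 613-fold (interval 209-fold to 2978-fold) and 584-fold (199-fold to 2837-fold). All 6 passed the test (edgeR adjusted p of 8.14e-08 or less) and were lower in 5 of 5 barcodes. The end counts of 2 to 4 reads leave the order among the 6 undecided. The deepest falls can be measured only in members with many reads at the start. Over the 400 members the log2 change at 72 h ran with the log2 reads at 0 h at r = -0.93 for label 200 and -0.91 for label 150, a description of points that share their libraries. WWV and WWL began at 3518 and 4573 reads and ended at 2 and 478, so they ended far apart from similar starting levels.

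Of the 20 members with the same residue on both sides, LWL held by far the most reads at the end. In mean CPM over the 5 barcodes, LWL stood at 217 at 0 h, 358 in the untreated culture at 24 h, 192 at label 150 at 24 h and 23.2 at label 150 at 72 h. MWM went from 255 to 200, 68.8 and 0.705 CPM through the same samples. WWW went from 155 to 193, 17.8 and 0.443 CPM, and FWF from 50.7 to 61.8, 3.20 and 0 CPM. IWI went from 41.3 to 24.7, 0.284 and 0.141 CPM, VWV from 34.7 to 5.25, 2.85 and 0 CPM, and YWY from 69.4 to 44.9, 0.571 and 0 CPM. GWG had 11.5 CPM in the untreated culture and no read at label 150 at 24 h.

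AWA, CWC, EWE, HWH, KWK, NWN, PWP, QWQ, RWR, SWS and TWT had no read at label 150 at 24 h, nor at 72 h. Of these 11, PWP was the most abundant in the untreated culture, at 31.0 CPM, and its fall passed the test at 24 h (edgeR adjusted p = 0.00734). KWK and RWR held 0.456 and 0.305 CPM there, too little to follow. DWD had no read in any library.

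The dose labels were compared directly at 72 h for the 8 members with enough reads. None differed (edgeR adjusted p of 0.05 or more), and 0 of all 1486 entries tested differed. A single member was lower at label 200 at an unadjusted p under 0.05, and DESeq2 called 0. With the replicate block all 8 were lower at label 200, where 75.3% of all entries were lower and 9.49% higher. The log2 differences, label 200 minus label 150, were -0.96 for WWL, -0.80 for MWL, -1.06 for CWF, -1.83 for MWW and -1.70 for LWL, beside a median of -0.94 over all entries tested.

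Grids with more tryptophan cores kept more of their reads. Grids of the same flanks with a single core, with the pair and with 3 cores held 0.520%, 2.42% and 5.52% of reads at 0 h. At label 150 at 24 h they kept 2.55% ± 2.37, 29.7% ± 2.25 and 88.8% ± 8.51 (SD, n = 5) of their untreated shares. At 72 h they stood at 0.0632% ± 0.0631, 0.975% ± 0.176 and 41.8% ± 3.13 of their shares at 0 h. Matched by flanks, the pair was more abundant than the single core in 332 of 400 contexts at 0 h and 328 in the untreated culture at 24 h, and less abundant than 3 cores in 282 and 300. These differences in abundance were thus present at the start. The share of tested members that fell at label 150 at 24 h was 92.3% of 13 with a single core, 56.7% of 164 with the pair and 43.0% of 258 with 3 cores.

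Isoleucine flanks kept more with 3 cores than with the pair, as leucine flanks and the grid as a whole did. With 3 cores, leucine before the core kept 122% ± 14.2 of the untreated share at label 150 at 24 h and isoleucine 81.9% ± 16.3, against 39.1% ± 4.15 and 4.31% ± 3.56 with the pair. After the core isoleucine kept 47.4% ± 6.62, against 15.2% ± 6.32. Valine kept 17.9% ± 9.48 before and 4.86% ± 3.14 after the core with 3 cores, against 5.35% ± 3.68 and 7.21% ± 6.10. Lysine before the core kept 0.366% ± 0.819 with 3 cores. Replacing the core tryptophan of the pair with phenylalanine, leucine or tyrosine gave starting shares of 1.48%, 1.32% and 1.17%. These grids kept 38.4% ± 5.83, 48.8% ± 5.38 and 24.2% ± 5.60 at label 150 at 24 h. The pair with tryptophan was the more abundant in 257, 256 and 287 of 400 contexts at 0 h and in 273, 289 and 297 in the untreated culture at 24 h. At label 150 at 72 h, however, the leucine grid held 0.0570% ± 0.0198 of reads against 0.0236% ± 0.00529 for tryptophan, and their barcodes did not overlap (0.0341% to 0.0808% against 0.0174% to 0.0297%). The reads of the leucine grid then lay in 25 members and those of the tryptophan pair in 56. Matched by flanks in that sample, the tryptophan pair was the more abundant in 51 contexts and the leucine core in 18, with 331 equal. The larger leucine share was thus one of summed reads and not of most contexts.

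With leucine as the core, the flank with the most reads was tryptophan. Tryptophan flanks of a leucine core held 2372 CPM before and 2665 CPM after the core in the untreated culture at 24 h, and kept 60.5% ± 10.2 and 64.8% ± 4.50 at label 150. Leucine flanks of a leucine core kept 35.1% ± 16.2 and 14.1% ± 14.6. With tryptophan as the core the order of the summed percents was turned after the core. There leucine kept 51.2% ± 7.31 and tryptophan 33.2% ± 7.17. In members with at least 100 untreated reads, matched by the residue before, leucine kept more than tryptophan in 7 of 13 contexts. The medians were 19.2% for leucine and 28.4% for tryptophan, so single members did not show the turned order.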

How the data were processed

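The authors deposited a table of unnormalized counts, whole numbers with 1 column for each sample and barcode per the file headers. Cutadapt and STAR are named in the submitters' processing notes without a role; how reads were assigned to sequences is not given in the sources used here. Replicate barcodes were added by PCR before cloning, per the labels' protocols, and a second PCR on yeast DNA gave the sequenced fragments. Reads of 1 molecule cannot be told apart, so floors (3 counts over the 5 libraries of a group) and 95% exact intervals cover counting error only.

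Groups came from the titles, treatments and times in the labels. For the 6 comparisons, edgeR 4.0.16 (R 4.3.3) fitted its quasi-likelihood model to the whole table with total-count scaling. Tests were two-sided, over entries that averaged 10 counts or more in the libraries compared, with Benjamini-Hochberg adjustment over all entries tested and a threshold of 0.05. The script was tested on simulated data. CPM and percents of reads are relative to each library's total. Flank effects are mean log2 CPM changes (prior count 2) of a residue's 20 members minus those of the 400, per barcode; they and all sums over members are descriptions without a test. Percent kept per residue or class is a mean over barcodes, and per member it is pooled over barcodes. Classes were acidic (D, E), basic (K, R, H), aromatic (F, W, Y), aliphatic (I, L, M, V), proline, and small or polar (A, C, G, N, Q, S, T).

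Alternatives were TMM scaling, DESeq2 1.42.0, no filter, the replicate block, each barcode left out, other prior counts, summed reads, and the other dose. The barcode numbers pair the samples: deviations from the group means had correlations of 0.415 to 0.956 between equal numbers in the 6 comparisons, and of -0.0908 or less otherwise, and each barcode correlated best with its own number in 5 of 5.

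Members named by rule were rises past the threshold at either dose at 72 h (0 and 0 were found), the 5 largest shares and the 6 largest falls at label 200 at 72 h (counts under 3 set to 3), the 20 members with equal flanks, and the 5 swapped pairs with the largest difference at label 200 at 72 h. Other members named were chosen after their values were seen. The members and lists were chosen with earlier results of these data known.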

Additional observations from a re-analysis of the deposited data

Results flagged for a closer look

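Of 106 groups of 5 barcodes examined, 9 held a barcode far from the other 4 by Dixon's criterion, and chance gives about 1 in 20 groups. MWW in barcode 3 stood apart in 4 samples: at 1377 CPM in the untreated culture at 12 h (next highest 695 CPM), 1525 CPM at 24 h (777 CPM), 1180 CPM at label 150 at 12 h (614 CPM) and 1300 CPM at label 200 at 12 h (701 CPM). CWF in barcode 1 stood at 46.9 CPM at label 150 at 72 h, where the next highest was 13.2 CPM. At label 200 at 72 h it stood at 26.2 CPM, with the next at 5.01 CPM.

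The other 3 concern basic flanks at label 150 at 24 h, as percents of the untreated culture at 24 h. Lysine before the core reached 31.8% in barcode 5, arginine before the core 2.01% in barcode 4 and histidine after the core 13.6% in barcode 5, each above a median of 1.07% or less. Lysine and arginine before the core rested on 9 and 11 reads over all barcodes.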

How the results depend on the processing

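Depth limits the depleted members: with 100 untreated reads, a floor of 3 reads is 5.43% kept at label 150, and at label 200 reads of entries that encode nothing remained. For falls in the untreated culture at 24 h, 70 members in the main setting became 3 with TMM scaling, 42 with DESeq2 and 124 without the filter, and 26 to 50 with a barcode left out. DESeq2 called 1 rise there. At label 150 at 24 h, 182 fell without the filter. At label 200 at 24 h, 17 falls became 11 with TMM, and 0 with any barcode left out (0 to 0). At label 200 at 72 h, 154 fell with TMM. The cause was not tested, except that fewer or more entries were tested with a changed filter.

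With the replicate block, 262 members fell and 9 rose in the untreated culture at 24 h, and the shares of all entries called under the block were then also higher. The block gave 151 falls and 1 rise at label 150 at 24 h, 86 falls and 1 rise at label 200 at 24 h, and 8 falls of label 200 against label 150 at 72 h. It moved no count of falls at 72 h against 0 h.

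With TMM scaling, which moved the median of all entries by 4.40 at label 200 at 72 h, more than the size of the changes of WWL, MWL and CWF, these 3 changed sign (0.75, 0.44 and 1.30). The reversal comes from that shift of all entries. LWL and MWW kept their direction and no longer passed (-0.61 and -1.44). WWL and CWF no longer passed with DESeq2 either. The 6 largest falls passed in each setting that tested them. The doubly aliphatic class at label 150 at 24 h kept 47.4% with all members and 23.1% without MWL and LWL, an alternative chosen after seeing the data.

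The 43 members that kept at least 25% became 44 and 38 with minimums of 50 and 200 reads, and 39 to 43 with a barcode left out, alternatives chosen after seeing the data. The share of the grid moved by less than its SD with any barcode left out. Mean log2 flank effects at label 200 at 72 h were less stable: with summed reads 19 of 40 changed sign, and over members with at least 100 reads at 0 h, an alternative also chosen after seeing the data, 9 of 40 did. They are therefore not reported as results.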
